A study of Gallus gallus with 5 samples.

Results

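A set of 15 genes was followed whose mRNA levels moved together across chick brain libraries that had all received the same injection. The genes were taken from the 11476 listed by their likeness to ENSGALG00000023622.3, called the anchor here, which is itself 1 of the 15. Levels are in CPM, the number of counts of a gene in every 1000000 counts of the library. The members were chosen by these measured levels. A member had a mean of at least 20 CPM, a highest library at least 2 times its lowest (with the lowest taken as no less than 1 CPM), and a Pearson r of at least 0.9 to the anchor over the 5 libraries on the scale of log2(CPM + 0.5). The 4 IDs that the rule names as mitochondrial were left out. The levels of these libraries therefore chose the members, and what follows describes those levels with no test of them.

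The libraries came from the PO/AH (preoptic area with the anterior part of the hypothalamus) of Cobb strain broiler chicks raised at 30 °C. Each chick had been injected into this tissue on day 3 after hatching with a mimic of gga-miR-210a-3p and was killed 6 h later. The 5 libraries, numbered 1, 2, 6, 9 and 10 in their titles, form 1 group with this treatment in common. Naive chicks, the reference named in the design text, were not analysed here, so no value below is an effect of the mimic. The labels do not tie a library to a separate animal, and the SDs given measure the spread between libraries, which may be technical. In whole tissue, fewer cells of a type and less RNA per cell cannot be told apart.

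The preoptic area and anterior hypothalamus hold temperature-sensitive neurons and act as the main integrating centre for body temperature in birds and mammals. A microRNA pairs through a short seed near its 5′ end with sites that lie mostly in 3′ untranslated regions, and lowers the stability or the translation of those mRNAs. A mimic is a synthetic duplex that loads into the same protein complex as the natural microRNA. In mammals, miR-210 is known as a microRNA that is induced by low oxygen. Genes can be grouped by levels that rise and fall together across samples. Such a group is a description of levels and does not name a shared cell type or regulator.

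Gene symbols could not be attached. The table's name column repeats the versioned Ensembl ID for every gene, and 0 of the IDs occurred in the RefSeq gene table of another chicken assembly. The members are therefore given by ID, their roles, positions and sequences are not given, and the label of the tissue was not checked against its marker genes. Whether any of them are near-identical copies that could share reads was not examined for the same reason.

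Totals ran from 3446463 UMI counts in library 1 to 5445181 in library 10, with 3764534 in library 2, 3875774 in library 6 and 4543759 in library 9. A UMI is a random tag put on each cDNA molecule, so that copies made by amplification are counted once. Between 11174 and 11348 genes had a count in a library. Counts of no 2 libraries agreed within sampling noise (mean chi-square per gene of 6.19 to 13.6 over the 10 pairs), and n was kept at 5.

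All 15 members were highest in library 6, and all 15 were lowest in library 1 or library 2. Together they held 3283, 1970, 1697, 1004 and 890.4 CPM in libraries 6, 9, 10, 1 and 2. Their summed level was thus 3.69 times as high in library 6 as in library 2, with a 95% counting interval of 3.55 to 3.83. The mean over libraries was 1769 ± 961 CPM (SD, n = 5). The summed levels rest on 3352 counts in library 2 and 12726 counts in library 6, so counting error is small beside the range.

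The share of genes that the rule takes is 3.21% of the 468 genes that met the limits on level and range. Those 468 genes are 9.89% of the 4731 genes of at least 20 CPM. Among the 468, library 6 was the highest library for 11.5%, and it was highest with library 1 or 2 lowest for 8.55%. The likeness to the anchor favours this order of libraries for the members, so the 15 of 15 above is a description of the rule's outcome.

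The members did not follow a single order in full. In 7 of them, the anchor included, the order from low to high was 2, 1, 10, 9, 6. In 3 it was 1, 2, 10, 9, 6, in 3 more it was 1, 2, 9, 10, 6, and the order was 2, 1, 9, 10, 6 for ENSGALG00000023933.2. ENSGALG00000045362.1 was the exception to the grouping of libraries 1 and 2 at the bottom, with library 10 at 31.4 CPM and library 1 at 31.6 CPM.

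**Figure D1:**
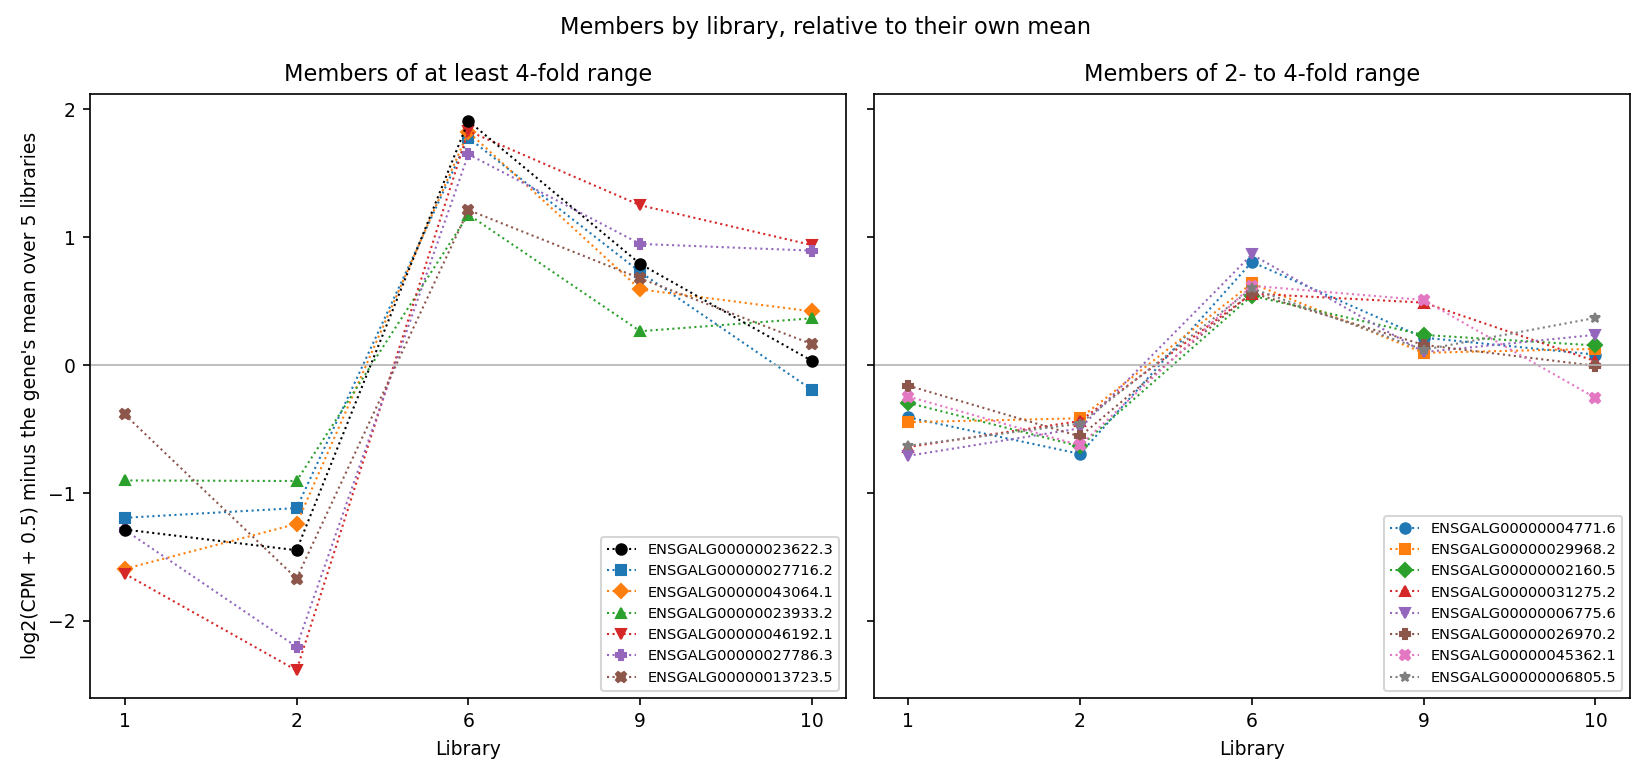
log2(CPM + 0.5) of each member minus its own mean over the 5 libraries, for the 7 members with a range of at least 4-fold (left) and the 8 with a smaller range (right). Each marker is 1 gene in 1 library, and dotted lines join the values of a gene as a guide for the eye, since libraries have no order. In both panels every member peaks in library 6, and the left panel spans the wider range.

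By size, the members fell into 7 with a range of 4.36-fold to 23.3-fold and 8 with a range of 2.13-fold to 3.02-fold. The 7 wide-ranging members summed to 1738, 814.5, 602, 196 and 189 CPM in libraries 6, 9, 10, 1 and 2, a 9.18-fold range. The 8 others summed to 1545, 1155, 1095, 808 and 701 CPM in libraries 6, 9, 10, 1 and 2, a 2.20-fold range.

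Of the wide-ranging members, the anchor ENSGALG00000023622.3 was the most abundant. It stood at 84.1, 75.2, 774, 357 and 211 CPM in libraries 1, 2, 6, 9 and 10. Its mean was 300.1 ± 288.5 CPM (SD, n = 5), so its SD was close to its mean. Libraries 1 and 2 did not differ beyond counting error, and library 6 was 10.3 times as high as library 2, with a 95% counting interval of 9.11 to 11.7.

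ENSGALG00000043064.1 had a similar level and a similar range. It was at 60.1, 76.8, 646, 275 and 244 CPM in libraries 1, 2, 6, 9 and 10, with a mean of 260.3 ± 236 CPM (SD, n = 5). Its ratio of library 6 to library 1 was 10.8 (counting interval 9.33 to 12.5). It differs from the anchor in having library 1, not library 2, at the bottom, and a smaller step between libraries 9 and 10.

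ENSGALG00000027716.2 had the highest r to the anchor, 0.993, at a lower level. Its values were 11.3, 11.95, 92.1, 44.2 and 23.1 CPM in libraries 1, 2, 6, 9 and 10, with a mean of 36.6 ± 33.8 CPM (SD, n = 5). Library 6 was 8.14 times library 1 (counting interval 5.84 to 11.6).

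The widest ranges belonged to a pair of lower-level genes, ENSGALG00000046192.1 and ENSGALG00000027786.3. ENSGALG00000046192.1 had 12 counts in library 1, 7 counts in library 2, 168 counts in library 6, 131 counts in library 9 and 126 counts in library 10. These are 3.48, 1.86, 43.3, 28.8 and 23.1 CPM, with a mean of 20.1 ± 17.6 CPM (SD, n = 5), the nearest of the members to the limit on level. Its 23.3-fold range is poorly fixed, with a counting interval of 11.1 to 58.9, because the lowest library held so few counts.

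ENSGALG00000027786.3 stood at 10.4, 5.31, 83.3, 51.1 and 49.2 CPM in libraries 1, 2, 6, 9 and 10. Its mean was 39.9 ± 32.3 CPM (SD, n = 5) and its range 15.7-fold (counting interval 9.99 to 26.0). For these 2 genes libraries 9 and 10 lay closer to library 6 than they did for the anchor, and library 2 was below library 1 beyond counting error for ENSGALG00000027786.3.

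ENSGALG00000013723.5 shared the low value in library 2. It was at 13.6, 5.31, 42.3, 29.1 and 20.2 CPM in libraries 1, 2, 6, 9 and 10, with a mean of 22.1 ± 14.3 CPM (SD, n = 5). The ratio of library 6 to library 2 was 7.96 (counting interval 4.99 to 13.4).

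ENSGALG00000023933.2 had the smallest range of the 7. It stood at 13.1, 13.02, 56.8, 29.9 and 32.1 CPM in libraries 1, 2, 6, 9 and 10, with a mean of 29.0 ± 18.0 CPM (SD, n = 5). Libraries 1 and 2 were at one level, libraries 9 and 10 at another and library 6 above both, with a ratio of 4.36 between the extremes (counting interval 3.19 to 6.07).

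**Figure D2:**
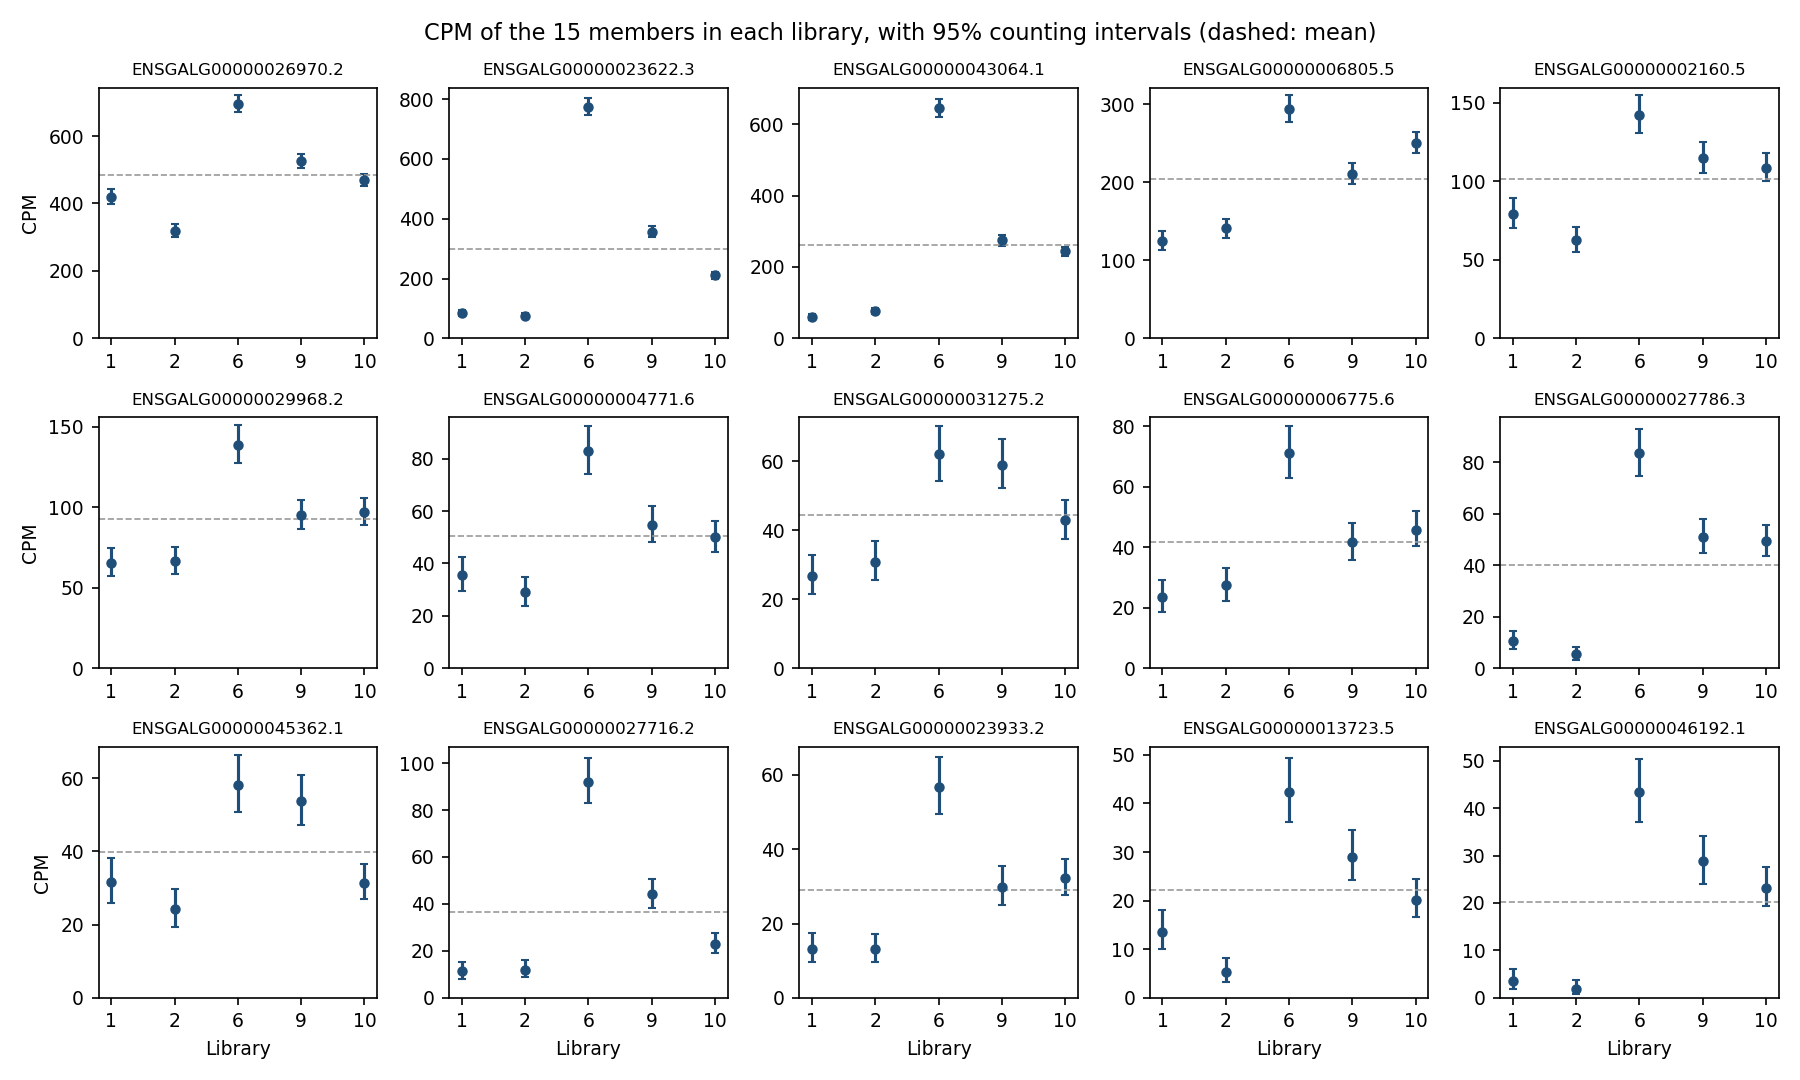
CPM of each of the 15 members (1 panel each, in order of mean level) in libraries 1, 2, 6, 9 and 10, with bars for the 95% exact Poisson interval, which covers counting error only, and a dashed line at the mean. Vertical axes start at 0 and differ between panels. In all 15 panels library 6 is the highest point, and for ENSGALG00000031275.2 and ENSGALG00000045362.1 its bar overlaps that of library 9.

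The 8 members of smaller range included the most abundant of all, ENSGALG00000026970.2. It was at 421, 319, 696, 525 and 468 CPM in libraries 1, 2, 6, 9 and 10, with a mean of 485.9 ± 140 CPM (SD, n = 5). Library 1 lay nearer to library 10 than to library 2 here, and the range of 2.18-fold was tightly counted, with an interval of 2.04 to 2.34.

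ENSGALG00000006805.5 stood at 125, 141, 294, 211 and 250.5 CPM in libraries 1, 2, 6, 9 and 10, with a mean of 204 ± 71.6 CPM (SD, n = 5). It was the 1 member for which library 10 exceeded library 9 by more than counting error. ENSGALG00000002160.5 had 79.5, 62.7, 142, 115 and 109 CPM in libraries 1, 2, 6, 9 and 10, with a mean of 102 ± 31.2 CPM (SD, n = 5). Its libraries 9 and 10 were nearly level.

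ENSGALG00000029968.2 had the narrowest range, 2.13-fold. Its values were 65.3, 66.7, 139, 95.3 and 97.3 CPM in libraries 1, 2, 6, 9 and 10, with a mean of 92.7 ± 30.0 CPM (SD, n = 5). It formed 3 steps, with libraries 1 and 2 together, 9 and 10 together and 6 alone. ENSGALG00000006775.6 made the same steps at 23.5, 27.4, 71.0, 41.6 and 45.7 CPM in libraries 1, 2, 6, 9 and 10, with a mean of 41.8 ± 18.8 CPM (SD, n = 5) and a 3.02-fold range.

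ENSGALG00000004771.6 was at 35.4, 29.0, 82.8, 54.8 and 49.95 CPM in libraries 1, 2, 6, 9 and 10, with a mean of 50.4 ± 21.0 CPM (SD, n = 5) and a 2.86-fold range. Its r to the anchor, 0.985, was the second highest, although its range was far smaller than the anchor's 10.3-fold. A high r thus went with wide and narrow ranges alike.

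The remaining members put library 9 beside library 6. ENSGALG00000031275.2 stood at 26.7, 30.8, 61.9, 59.0 and 42.8 CPM in libraries 1, 2, 6, 9 and 10, with a mean of 44.2 ± 16.0 CPM (SD, n = 5). ENSGALG00000045362.1 stood at 31.6, 24.2, 58.1, 53.7 and 31.4 CPM in libraries 1, 2, 6, 9 and 10, with a mean of 39.8 ± 15.1 CPM (SD, n = 5). In these 2 genes library 9 reached 95.3% and 92.5% of library 6, against 46.1% for the anchor.

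Neighbouring libraries in the order were resolved to different degrees. Library 6 was above library 9 beyond counting error in 13 of the 15 members and above library 10 in 15 of 15. Library 9 was above library 10 beyond counting error in 7 members and below it in 1, and the other 7 could not be separated. Library 10 was above library 1 beyond counting error in 14 members and above library 2 in 15. Libraries 1 and 2 could not be separated in 10 members, library 1 was the higher in 4 and library 2 the higher in 1. With 1 library at each position, these intervals cover counting error and not the spread between animals. A likeness to the anchor favours library 6 above libraries 9 and 10, and these above libraries 1 and 2. Those numbers of members thus describe the rule's outcome. Over the 468 genes, the median ratio of library 10 was 1.16 to library 1 and 1.34 to library 2. That of library 6 was 0.854 to library 9 and 0.763 to library 10, and that of library 9 to library 10 was 0.883. How many of the 468 were separated beyond counting error was not counted.

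Placed on the log2 scale between the mean of libraries 1 and 2 (taken as 0) and library 6 (taken as 1), library 9 had a median position of 0.642 over the 15 members, from 0.479 to 0.937. Library 10 had a median position of 0.532, from 0.171 for ENSGALG00000045362.1 to 0.798 for ENSGALG00000006805.5. For the anchor the positions were 0.659 and 0.427.

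The ratio between 2 members stays level only where they are alike in range as well as in pattern. The anchor was 7.44, 6.29, 8.40, 8.06 and 9.10 times ENSGALG00000027716.2 in libraries 1, 2, 6, 9 and 10, while the anchor itself ranged 10.3-fold. Against ENSGALG00000043064.1 the ratio ran from 0.864 to 1.40. Against ENSGALG00000046192.1, with 7 counts in library 2, it ran from 9.10 in library 10 to 40.4 in library 2. This was a 4.44-fold spread, although both genes were highest in library 6, where the ratio was 17.9, and lowest in library 2. Library 10 was at position 0.768 for ENSGALG00000046192.1 and 0.427 for the anchor, so the 2 genes differed in pattern as well. The widest spread, 5.56-fold, was against ENSGALG00000026970.2, whose own range was 2.18-fold. Between members, r was highest for ENSGALG00000046192.1 with ENSGALG00000027786.3, at 0.997, and lowest for ENSGALG00000045362.1 with ENSGALG00000006805.5, at 0.685. Of the 105 pairs of members, 79 had an r of at least 0.9. These include the 14 pairs with the anchor, which reach 0.9 by the rule. A high r to the same anchor also raises the r between the other members by construction. Each r is over 5 libraries that all genes share, and it is given as a description.

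**Figure D3:**
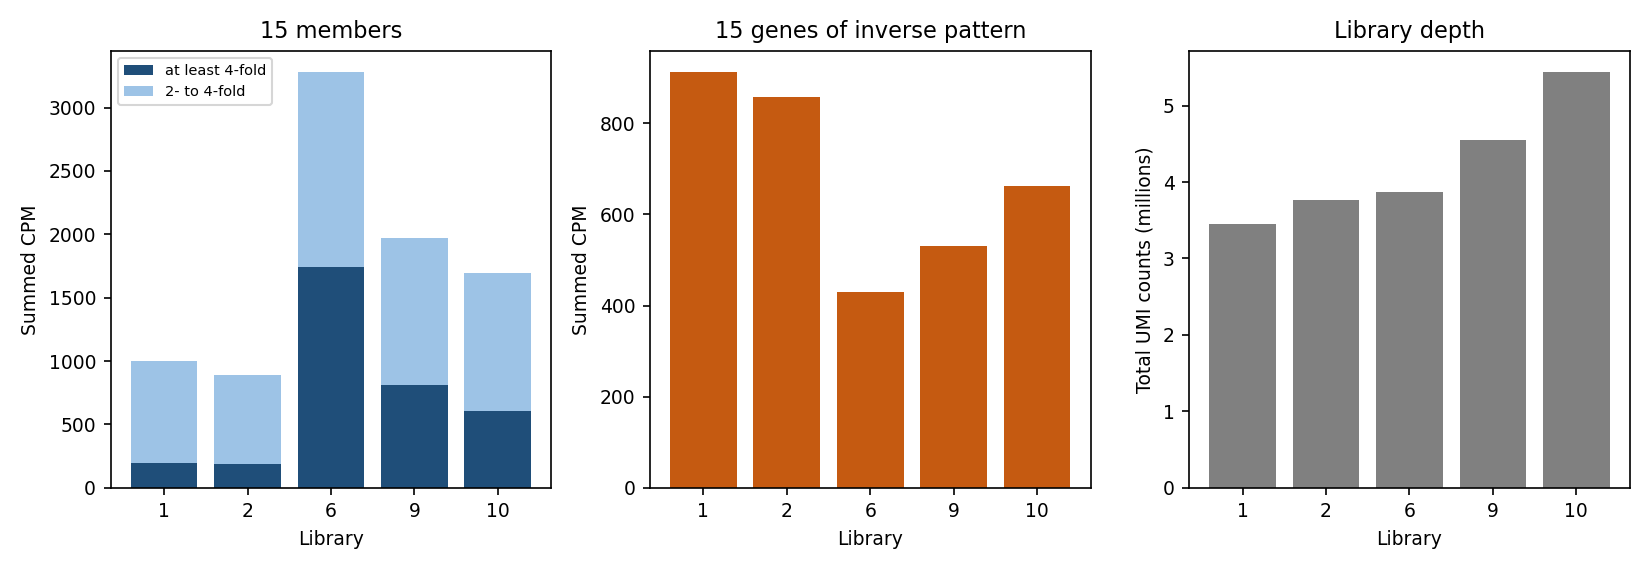
Summed CPM of the 15 members (left, stacked by range), summed CPM of the 15 genes of inverse pattern (middle) and total UMI counts (right) in libraries 1, 2, 6, 9 and 10. Members sum highest in library 6 at 3283 CPM, inverse genes sum lowest there at 429 CPM, and depth is highest in library 10.

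Library depth did not follow the order of the members. The members peaked in library 6, which at 3875774 counts had fewer counts than libraries 9 and 10, and the deepest, library 10, had a lower summed level of members than libraries 6 and 9. Libraries 1 and 2, where the members were lowest, were also the 2 shallowest. The 4 mitochondrial IDs summed to 90211, 95532, 96346, 100046 and 88073 CPM in libraries 1, 2, 6, 9 and 10, a 1.14-fold range. The part of depth and of mitochondrial transcripts in the members' levels was not tested.

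Beside the 14 genes that ran with the anchor, 15 of the 468 genes (3.21%) ran against it, with an r of at most -0.9. The median number of such inverse genes was 7 when each of the 468 was taken as anchor. The ranges of the 15 lay between 2.04-fold and 2.88-fold, and 0 of them reached 4-fold, where 8.33% of the 468 genes did. They summed to 914, 857, 429, 531 and 662 CPM in libraries 1, 2, 6, 9 and 10. ENSGALG00000010433.6 was the most nearly opposite, with an r of -0.998, at 30.5, 32.1, 13.9, 18.7 and 21.3 CPM in libraries 1, 2, 6, 9 and 10. The next, ENSGALG00000030543.1 (r -0.972), had 29.6, 29.8, 12.6, 20.03 and 19.5 CPM in libraries 1, 2, 6, 9 and 10.

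The abundant gene ENSGALG00000032456.1, which heads another pattern of these libraries, was at 10299, 2996, 1322, 1679 and 4299 CPM in libraries 1, 2, 6, 9 and 10. It was lowest in library 6, where the members were highest, but its libraries 2 and 10 did not mirror theirs, and its r to the anchor was -0.78. The same rule with this gene as anchor took 31 of the 468 genes, of which 0 were among the 15 members and 6 were among the 15 inverse genes. With the 2 anchors at an r of -0.78, no gene can have an r of at least 0.9 to both, so the 0 was fixed in advance. The same negative r favours an overlap with the inverse genes.

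**Figure D4:**
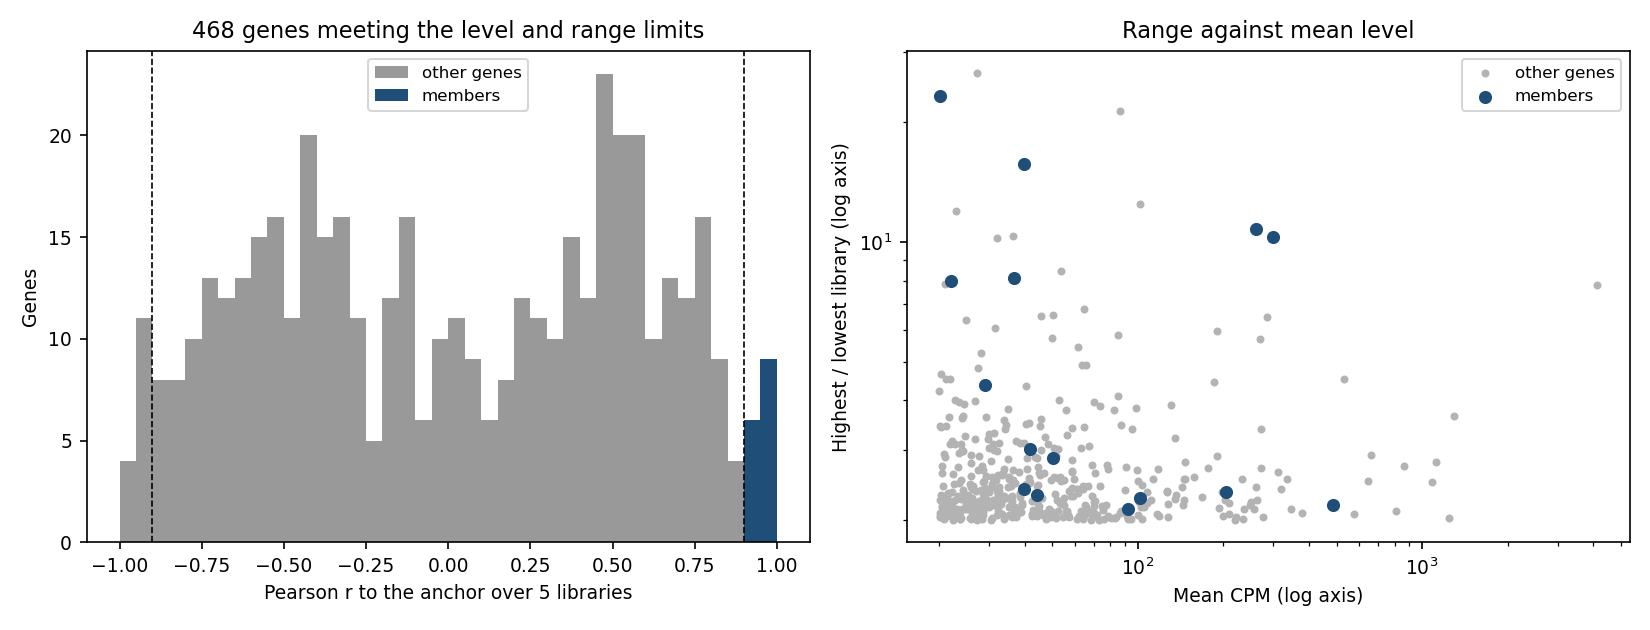
Left, the number of genes by Pearson r to the anchor over 5 libraries, for the 468 genes that met the limits on level and range, with dashed lines at 0.9 and -0.9. Right, the ratio of the highest to the lowest library against mean CPM for the same genes, both axes logarithmic. Members sit at the right edge of the left panel by construction, and in the right panel 7 of them lie above 4-fold.

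Most other genes taken as anchor also had partners at an r of at least 0.9 over the 5 libraries. The part of the small number of libraries in this was not tested. When each of the 468 genes was taken as anchor in turn, the number of partners ran from 0 to 77 with a median of 17.5 and quartiles of 8 and 32.2. The anchor had 14 partners, and 266 genes had more, so its number of partners lay below the median under these limits. It was also below the median at an r of 0.8 (27 against 46) and at a range of 1.5-fold (41 against 55). Linear CPM gave 15 against 19 and Spearman's rho 18 against 34. Offsets of 5 and 0.1 CPM gave 14 against 17.5 and 14 against 18. Without library 2, 9 or 10 it was 19 against 36, 16 against 37 and 22 against 25. In the other settings it was not below the median. At a limit of 100 CPM the numbers were equal, 4 against 4. The anchor had 8 partners against a median of 7 at an r of 0.95 and 6 against 2 at a range of 4-fold. It had 42 against 29 without library 6 and 24 against 20 without library 1, and 15 against 15 with TMM factors, DESeq2 size factors or the deposited normalised counts. Range is part of the rule as well, and the counts that follow are a description. Of the 468 genes, 39 (8.33%) had a range of at least 4-fold, and 7 of these 39 (17.9%) were members. Of the 468 genes, 10 had a range of at least 10-fold, and 4 of these were members. The anchor, a member by definition, is among both the 7 and the 4. The median range was 3.02-fold for the 15 members, 2.32-fold for the 468 genes and 1.42-fold for the 4731 genes of at least 20 CPM.

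The spread was also expressed as edgeR's BCV (biological coefficient of variation), an estimate of the SD between libraries relative to the mean once counting error is taken off. The estimate for a gene is pulled towards the trend of all genes, and so lies below the plain ratio of SD to mean for genes as variable as the anchor. It uses the same counts as the rule and is again a description. The median over the 14 fitted members was 0.294, against 0.247 for the 466 fitted genes of the 468 and 0.176 for all 7503 fitted genes. ENSGALG00000046192.1 was not fitted, because the filter on low counts left it out. The BCV was 0.617 for ENSGALG00000027786.3, 0.587 for the anchor, 0.572 for ENSGALG00000043064.1 and 0.555 for ENSGALG00000027716.2. These 4 of the 14 fitted members, the anchor among them, exceeded a BCV of 0.5. So did 12 of all 4733 genes that were fitted at a level of 20 CPM or more, the 4 included. The limit on range favours a high BCV in the members, so the 4 describe the rule's outcome. At the other end, ENSGALG00000026970.2 had a BCV of 0.214.

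Genes lay on both sides of each limit. Just inside the limit on r were ENSGALG00000045362.1 at 0.918 and ENSGALG00000006805.5 at 0.910. Just outside were ENSGALG00000035140.1 at 0.886 and ENSGALG00000007082.5 at 0.873. ENSGALG00000035140.1 stood at 24.4, 29.2, 45.2, 49.7 and 38.0 CPM in libraries 1, 2, 6, 9 and 10, so its highest library was 9. ENSGALG00000007082.5 stood at 17.4, 22.8, 49.5, 38.7 and 45.9 CPM in libraries 1, 2, 6, 9 and 10. Of the 4731 genes of at least 20 CPM, 103 (2.18%) had an r of at least 0.9, and 88 of these were left out by the limit on range, with ranges from 1.07-fold to 1.97-fold.

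Membership depended on which libraries were used. When the rule was applied to 4 libraries, 14 of the 15 members were kept without library 1, 11 without library 2, 14 without library 9, 14 without library 10 and 6 without library 6. The number of genes that met the limits on level and range changed as well. The rule was met by 25 of 270 such genes (9.26%) without library 1 and 20 of 393 (5.09%) without library 2. Without library 9 it was met by 17 of 376 (4.52%). It was met by 23 of 354 (6.5%) without library 10 and 43 of 371 (11.6%) without library 6, against 3.21% of 468 with all 5 libraries. A limit on r is easier to meet over 4 points, which holds for all 5 removals alike. What set the differences between these numbers was not tested. Of the 9 members lost without library 6, which is the highest library of every member, 4 kept an r of at least 0.9 and missed the limit on range or level. The 6 genes kept in all 5 of these removals were ENSGALG00000023622.3, ENSGALG00000027716.2, ENSGALG00000043064.1, ENSGALG00000023933.2, ENSGALG00000031275.2 and ENSGALG00000027786.3. The first of these is the anchor, which cannot miss the limit on r because its r to itself is always 1. Without library 6, the r to the anchor was 0.986 for ENSGALG00000027716.2 and 0.956 for ENSGALG00000043064.1, and it fell to 0.851 for ENSGALG00000006805.5. Without library 6 the anchor still had a 4.74-fold range, between library 9 and library 2, and the summed members a 2.21-fold range.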

How the data were processed

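Messenger RNA was measured by bulk MARS-seq, a 3′-end method, from 15 ng of RNA per library. The design text of the series names cutadapt for trimming, STAR for mapping to the 3′ ends of galGal5 genes, and HTSeq for counting after UMI duplicates were removed, with a correction for saturation. Tool versions: not given in the sources used here. The deposited table holds, per the file headers, raw counts, which were analysed, and normalised counts, a signal the authors made by dividing the counts by 1 factor per library, used as an alternative. 0 columns of values lay outside the 5 libraries.

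The members and lists were chosen with earlier results of these data known. Genes named in the text were the anchor, the 5 members of highest r, of highest mean and of largest range, the genes next to the limit on r and the 2 of most negative r. The other members were added so that all 15 are described. Lists of marker genes could not be used without symbols. BCVs were fitted over the whole table (R 4.3.3, edgeR 4.0.16) with an intercept as the whole design, after filterByExpr and TMM scaling. DESeq2 1.42.0 size factors were an alternative. Intervals for ratios are exact binomial (Clopper-Pearson) intervals of 95%, conditional on the sum of the 2 counts, and cover counting error only. The code for the selection and the BCV was tried on simulated counts with known answers, which checks the code and not the members found here. A single group was analysed, so no comparison between groups was made and no p-value is given.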

Additional observations from a re-analysis of the deposited data

Results flagged for a closer look

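The levels of the members and of the inverse genes chose them, so they were not examined for a library that stands apart. Dixon's gap test was applied to 3 measures outside the rule over the 5 libraries. The gap took up 0.396 of the range for total counts (library 10), 0.374 for genes with a count (library 10) and 0.296 for the summed mitochondrial IDs (library 9), each under the limit of 0.71.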

How the results depend on the processing

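The number of members, 15, was 16 with TMM factors, DESeq2 size factors or the deposited normalised counts, and all 15 were among them each time. It was 15 with offsets of 0.1 or 5 CPM, 16 on linear CPM (12 shared) and 19 with Spearman's rho (12 shared). It followed the limits, with 9 at an r of 0.95 and 28 at 0.8, which are 1.92% and 5.98% of the 468 genes. With no limit on level it was 86 of the 3316 genes that then met the limits on level and range (2.59%). At 100 CPM it was 5 of 76 (6.58%), at 1.5-fold 42 of 1879 (2.24%) and at 4-fold 7 of 39 (17.9%). The main share was 3.21% of 468. Without single libraries it ran from 17 of 376 (4.52%, without library 9) to 43 of 371 (11.6%, without library 6). It was 25 of 270 (9.26%) without library 1 and 23 of 354 (6.5%) without library 10. The median number of partners per gene, 17.5, was 7 at an r of 0.95, 46 at 0.8, 4 at 100 CPM, 55 at 1.5-fold, 2 at 4-fold and 34 with Spearman's rho, and 20 to 37 without single libraries. It was not recomputed with no limit on level. The summed members' range, 3.69-fold, was 3.08-fold without the anchor, 3.39-fold without the 5 most abundant members and 2.21-fold to 3.69-fold without single libraries. The anchor's range, 10.3-fold, ran from 4.74-fold (without library 6) to 10.3-fold without single libraries, and was 10.4-fold with DESeq2 size factors or the deposited counts. The median BCV of members ran from 0.250 to 0.318 without single libraries, and the settings for BCV and partners were chosen after seeing the data. Of the other named genes, 57 of 57 mean levels stayed within their SD and 55 of 57 ranges within their counting interval under other scalings, the exceptions being ENSGALG00000032456.1 at 7.54-fold and 7.53-fold. Without single libraries 95 of 95 mean levels and 75 of 95 ranges did. Leaving out 1 of 5 libraries cannot move a mean by as much as its SD, so the 95 of 95 was fixed in advance. The other scalings changed the values of a library little, with TMM factors of 0.977 to 1.04, while the named genes ranged at least 2-fold. The 57 of 57 could thus hardly have come out otherwise. Leaving out the highest or lowest library narrows a range by construction. Without library 2 the range was 3.10-fold for ENSGALG00000013723.5, 7.98-fold for ENSGALG00000027786.3 and 12.4-fold for ENSGALG00000046192.1. It was 1.65-fold for ENSGALG00000026970.2, 1.79-fold for ENSGALG00000002160.5 and 1.85-fold for ENSGALG00000045362.1, and 12 of the 15 members kept a range of at least 2-fold. Without library 6 it was 1.89-fold for ENSGALG00000004771.6, 1.95-fold for ENSGALG00000006775.6, 2.47-fold for ENSGALG00000023933.2, 3.91-fold for ENSGALG00000027716.2, 4.58-fold for ENSGALG00000043064.1, 9.61-fold for ENSGALG00000027786.3, 1.53-fold for ENSGALG00000030543.1 and 15.5-fold for ENSGALG00000046192.1. Without library 1 it was 3.25-fold for ENSGALG00000032456.1, 8.42-fold for ENSGALG00000043064.1 and 2.09-fold for ENSGALG00000006805.5. No paired analysis was possible because all 5 libraries belong to the same group. Counting error is largest for ENSGALG00000046192.1, with 7 counts in library 2, where 3 counts are 0.797 CPM.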

Other observations

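Below the limit on level, 13 of the 5130 genes of 1 to 20 CPM had an r of at least 0.9 to the anchor and a range of at least 4-fold, and all 13 were highest in library 6. They summed to 198, 124, 68.5, 41.8 and 35.9 CPM in libraries 6, 9, 10, 1 and 2. A likeness to the anchor, itself highest in library 6, favours a peak there, so this describes how the 13 genes were chosen. ENSGALG00000034478.1 had the widest range of them, 28.5-fold, at 1.16, 1.33, 33.0, 17.4 and 4.04 CPM in libraries 1, 2, 6, 9 and 10. Its lowest library held 4 counts, and the 95% counting interval of the range was 10.8 to 106. Among the 13, the interval lay above 4-fold only for this gene and ENSGALG00000028256.2 (5.34 to 82.7). For the others it reached below 4-fold, as for ENSGALG00000012545.5 (1.46 to 26.8). How many of the 5130 genes had a range of at least 4-fold was not counted.

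Of the 39 genes with a range of at least 4-fold, 9 were highest in library 6, and 2 of these were not members. ENSGALG00000001926.5 stood at 25.5, 6.11, 48.0, 18.0 and 6.98 CPM in libraries 1, 2, 6, 9 and 10. ENSGALG00000023936.3 stood at 9.28, 20.5, 44.9, 22.0 and 40.95 CPM in libraries 1, 2, 6, 9 and 10. The genes given by ID under this heading were named after their values were seen.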
